A study of Homo sapiens with 6 samples.

Results

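The S100 genes encode small calcium-binding proteins, and 10 of them were followed here among the 60662 genes of a count table: S100A2, S100A3, S100A4, S100A6, S100A8, S100A9, S100A11, S100A14, S100A16 and S100P. They were taken by exact match of the gene symbol, and all 10 had a row. The RNA came from DU-145, a human prostate cancer line, with a stable vector whose hairpin RNA against MUC1 is switched on through a tet system. In the DOX-negative group 3 cultures received vehicle for 7 days, and in the DOX-positive group 3 cultures received doxycycline (DOX), which induces the hairpin, for 7 days. All 6 cultures were exposed to interferon-gamma at 10 ng/ml for 24 hours. Cells without interferon-gamma and cells given DOX with another hairpin are not analysed here, so DOX, the hairpin and the fall of MUC1 cannot be told apart. Whether the hairpin line is a single clone is not given in the sources used here.

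S100 proteins carry a pair of EF-hand calcium-binding motifs and mostly act as dimers that bind partner proteins when calcium rises. Inside cells they regulate annexins, myosin and other targets. Several are also released as alarmins that signal through the receptor RAGE or through TLR4. Most of the human genes sit in a cluster on chromosome 1, beside the genes of the epidermal differentiation complex, and their expression in carcinoma cells varies widely between members.

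Libraries held between 87739734 and 150921436 reads, and the level of 3 reads, which a count of 0 allows, lay between 0.0204 and 0.0328 CPM (reads scaled by library size after TMM). MUC1, the target of the hairpin, matched the labels: it stood at 20.4, 21.8 and 22.2 CPM without DOX and at 1.53, 1.31 and 1.32 CPM with DOX. Of 7 genes that mark prostate lines, 5 were tested and all 5 rose, where 27.6% of all genes tested rose, among them the epithelial keratin KRT8 (357 ± 19.6 to 933 ± 33.4 CPM), KRT18 (175 ± 3.79 to 394 ± 5.13 CPM) and the adhesion genes EPCAM and CDH1. The prostate gene KLK3 had 0 reads. Their part in the S100 results was not tested.

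RefSeq listed 14 transcription starts for them (build GRCh38.p14), and the 250 bases before each start were searched on both strands for 5 motifs. A TATA box (TATAAA) lay upstream of S100A4, S100A8, S100A9 and S100P, and a GC box (GGGCGG) upstream of S100A3, S100A6, S100A9, S100A11 and S100A16. Only exact letters counted. TATAAG, which differs in its last letter, lay close before the starts of S100A6 and S100A14 and was not counted as a TATA box. Among all 35116 promoters of that length, 10.7% held the TATA box and 42.6% the GC box. A member was counted if any of its starts had a match, while these shares count each start alone. Windows of 30 bases around the match nearest the start are shown for the 4 genes that rose and for the 4 with a TATA box, in the direction of transcription, with the matched letters in capitals.
S100A6, GC box, chr1:153536049-153536078, minus strand: CGGgacttGGGCGGGCGGggtgggcttggc
S100A11, GC box, chr1:152037055-152037084, minus strand: ggaggcggggagGGGCGGggcaggcgcgga
S100A16, GC box, chr1:153609383-153609412, minus strand: gaggcgtggcttGGGCGGggcgagagtgat
S100A2, AP-1 motif, chr1:153565878-153565907, minus strand: ggagtgggctgTGACTCAcaggcatgtcat
S100A9, TATA box, chr1:153357813-153357842, plus strand: tcaggagctgccTATAAAtgccgagcctgc
S100A8, TATA box, chr1:153391085-153391114, minus strand: aagcctaaccgcTATAAAaaggagctgcct
S100A4, TATA box, chr1:153545820-153545849, minus strand: gcctggctggggTATAAAtaggtcagacct
S100P, TATA box, chr4:6693838-6693867, plus strand: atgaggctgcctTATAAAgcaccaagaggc

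The 4 TATA boxes began 29, 29, 31 and 28 bases before the starts of S100A9, S100A8, S100A4 and S100P. S100A6 had 3 GC boxes, 2 of which overlapped, and the capitals at the left edge of its window are the end of the third. S100A8, S100A16 and S100A2 have more than 1 start, and the window shows the match nearest to a start. In each of these genes another start had no match to the motif shown. The AP-1 motif (TGANTCA) was found upstream of S100A2 and S100A3 and in 6.57% of all promoters. The interferon-gamma-activated site (TTCNNNGAA) was found upstream of S100A3 alone among the members and in 6.57% of all promoters. An interferon-stimulated response element core (AAANNGAAA) was found upstream of 0 members and in 9.20% of all promoters. These are matches of letters, and binding was not measured.

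Of the 10 genes, 9 had enough reads to be tested, and 4 of these rose and 2 fell in DOX-positive cells at an adjusted p under 0.05 (edgeR quasi-likelihood test, adjusted over 24695 genes). S100A6, S100A16, S100A2 and S100A11 rose, S100A14 and S100A9 fell, S100A8, S100A3 and S100A4 did not pass, and S100P was not tested. Over all genes tested 56.5% passed, 27.6% higher and 28.9% lower, so a count of 6 in 9 is not far from the background. The 9 genes had a median log2 fold change of -0.30, against -0.04 for all genes tested. S100A6, S100A16 and S100A2 passed with an increase of at least 2-fold, as did 3.56% of all genes, and 0 members passed with a fall of that size, against 9.38% of all genes. The groups did not overlap in the 4 genes that rose and in 1 tested gene that was lower, S100A14, against 29.8% of all genes higher and 32.6% lower without overlap. In the plot of levels by library, the 3 most abundant members separate cleanly between the groups, while S100A9, S100A8, S100A3 and S100A4 overlap.

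**Figure D1:**
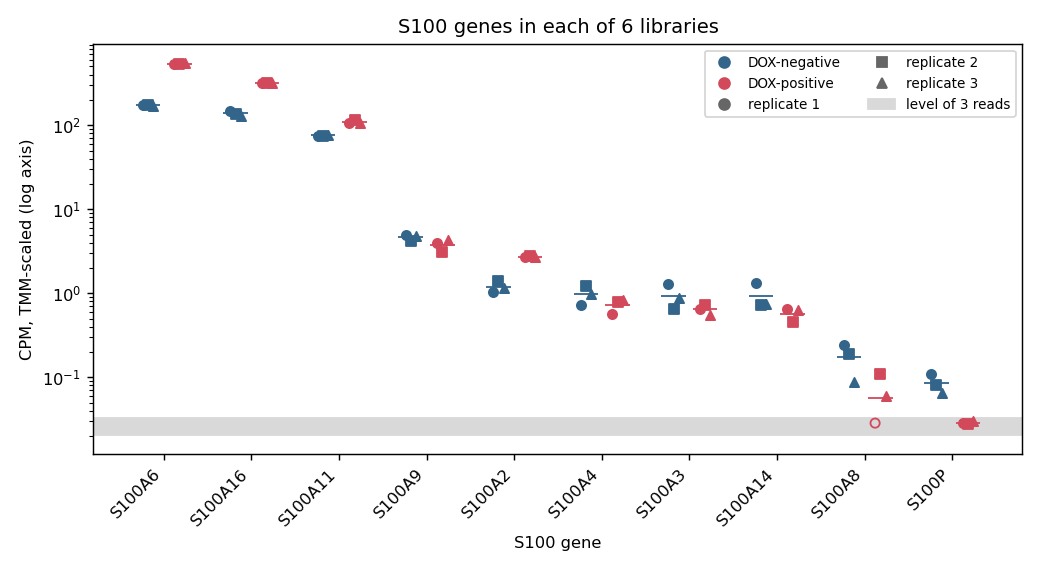
CPM of each of the 10 S100 genes (log axis) in 3 DOX-negative (blue) and 3 DOX-positive (red) libraries, with lines at the group means and a grey band at the level of 3 reads. S100A6, S100A16, S100A11 and S100A2 lie higher in all 3 DOX-positive libraries; the open symbol for S100A8 is a count of 0 drawn at the level of 3 reads.

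S100A6, or calcyclin, binds the ubiquitin-ligase adaptor CACYBP and several annexins, and is made by many proliferating epithelial cells. The gene (ENSG00000197956.10 in the count table) lies on the minus strand of chromosome 1 from 153534599 to 153536244 (GENCODE 29, GRCh38). It read 174, 173 and 169.7 CPM without DOX, against 538, 531 and 556 CPM with DOX. Every DOX-positive library was therefore far above every DOX-negative library, and the spread within each group was small. The mean rose 3.15-fold, from 172 ± 2.25 to 541 ± 13.2 CPM (SD, n = 3 each), with a log2 change of 1.65 (SE 0.03) and an adjusted p of 5.03e-16 by edgeR. Of the 24695 genes tested, 269 had a larger log2 fold change. The antisense gene BX470102.1 overlaps S100A6 and had 254 reads over the 6 libraries, against 246625 for S100A6.

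The genes whose profile over the 6 libraries was closest to that of S100A6 were TBC1D2, TCTA and ZNF185. Likeness was the root mean square distance between log2 CPM profiles centred on their own means, over 15008 genes with a mean of at least 1 CPM. The distances were 0.0139, 0.0268 and 0.0295 log2 units. TBC1D2, a GTPase-activating protein for Rab proteins, read 23.0 ± 0.509 and 71.9 ± 2.28 CPM, and ZNF185, a LIM-domain protein of the actin cytoskeleton, 42.7 ± 0.838 and 130.9 ± 1.93 CPM (SD, n = 3 each).

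S100A16 is a broadly expressed member with a poorly conserved first EF hand. The gene (ENSG00000188643.11) spans 153606886 to 153613145 on chromosome 1, minus strand. Its values were 149, 137 and 130.1 CPM without DOX and 319, 315 and 315 CPM with DOX. The groups did not overlap, and the DOX-positive libraries lay closer to each other than the DOX-negative ones. The increase was 2.28-fold, from 139 ± 9.74 to 316 ± 2.32 CPM, with a log2 change of 1.19 (SE 0.04; adjusted p = 6.64e-13 by edgeR).

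S100A11, or calgizzarin, binds annexin A1 and takes part in membrane repair and keratinocyte growth control. The gene (ENSG00000163191.6) spans 152032506 to 152047907 on chromosome 1, minus strand, apart from the main cluster and next to S100A10. It read 75.1, 74.8 and 76.6 CPM without DOX and 107, 116 and 107 CPM with DOX. The groups were again separate, but the step was smaller than for S100A6. S100A11 rose 1.46-fold, from 75.5 ± 0.932 to 110.1 ± 4.96 CPM (by edgeR, log2 change 0.54 with SE 0.04, adjusted p = 1.28e-09).

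S100A2 is a nuclear member that marks basal cells of stratified epithelium and the prostate. The gene (ENSG00000196754.12) spans 153561108 to 153567890 on chromosome 1, minus strand. It was a low-level transcript, with 1.03, 1.40 and 1.15 CPM without DOX and 2.69, 2.74 and 2.69 CPM with DOX. All 3 DOX-positive values were above all 3 DOX-negative values. S100A2 rose 2.25-fold, from 1.19 ± 0.193 to 2.71 ± 0.0271 CPM (by edgeR, log2 change 1.17 with SE 0.14, adjusted p = 2.24e-06).

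Squamous and basal keratinocyte genes were mostly at or near 0 reads. Of a list of 20 such genes, KRT5, KRT1, KRT6B, LOR, SPRR1B and SPRR3 had 0 reads in all libraries, 7 were tested, 2 rose and 1 fell, 3 of 7 against 56.5% of all genes tested. KRT13, a keratin of stratified mucosa, rose from 0.0843 ± 0.0485 to 0.310 ± 0.00483 CPM, the suprabasal keratin KRT10 rose by 0.17 on the log2 scale (0.03 with library size alone, where its call was lost, adjusted p = 0.599 by edgeR), and the desmosomal cadherin DSC3 fell from 21.5 ± 0.572 to 10.7 ± 0.470 CPM (SD, n = 3 each). TGM1, a transglutaminase of the cornified envelope, and KRT16 did not pass. KRT6A had 2, 4 and 0 reads without DOX and 13, 11 and 24 with DOX, and IVL, or involucrin, had 0, 8 and 0 against 7, 30 and 12, too few to test. The summed level of the list was 41.6 to 44.4 CPM without DOX and 34.4 to 35.2 CPM with DOX. Most of that sum was DSC3 and KRT10 (19.6 ± 0.919 CPM without DOX and 22.0 ± 0.487 CPM with DOX), of which DSC3 alone fell. The part of the list in the S100A2 result was not tested.

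**Figure D2:**
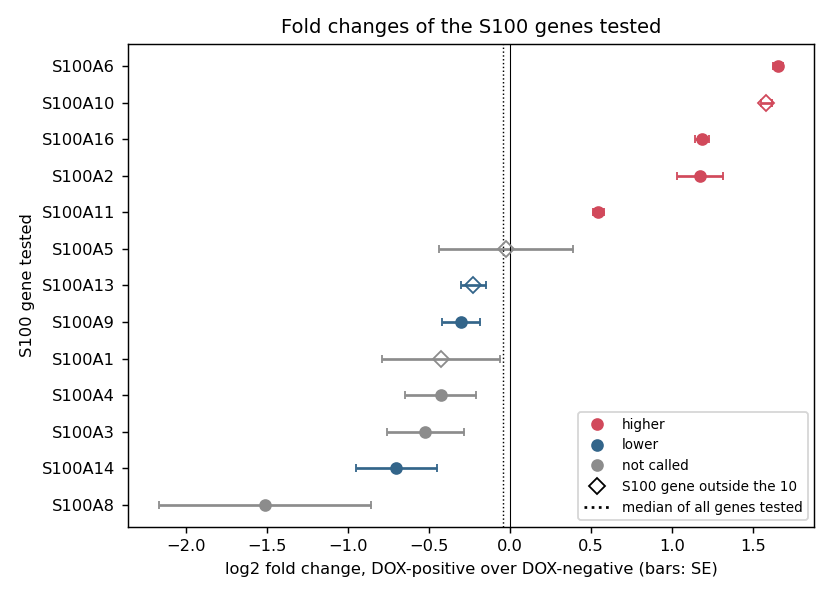
Log2 fold change with its SE for the 13 S100 genes tested, 9 of the 10 members (circles) and 4 other S100 genes (diamonds), with the median of all genes as a dotted line. The upper 5 genes rose, S100A14, S100A9 and S100A13 fell, and the remaining 5 did not pass.

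S100A8 and S100A9 are the chains of calprotectin, an alarmin of neutrophils and monocytes that inflamed epithelium also makes. S100A9 (ENSG00000163220.11, chromosome 1, 153357854 to 153361027, plus strand) read 4.89, 4.23 and 4.83 CPM without DOX and 3.93, 3.13 and 4.28 CPM with DOX. The groups touched, since DOX-positive replicate 3 was above DOX-negative replicate 2. The mean fell 1.23-fold, from 4.65 ± 0.364 to 3.78 ± 0.589 CPM (by edgeR, log2 change -0.30 with SE 0.12, adjusted p = 0.0352). That call was lost without DOX-negative replicate 1 (adjusted p = 0.0997), DOX-negative replicate 3 (0.112), DOX-positive replicate 1 (0.0511) or DOX-positive replicate 2 (0.228), and by the DESeq2 Wald test (0.0540).

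S100A8 (ENSG00000143546.10, chromosome 1, 153390032 to 153391188, minus strand) was a sparse transcript. It had 24, 28 and 8 reads without DOX and 0, 16 and 6 reads with DOX, or 0.241, 0.191, 0.0874, 0, 0.111 and 0.0606 CPM. The groups overlapped, and the library with 0 reads allows up to 0.0285 CPM by the level of 3 reads. The upper end of its 95% exact Poisson interval was 0.0350 CPM. Summed over each group, the level was 0.178 CPM (95% exact Poisson interval 0.136 to 0.229) without DOX. With DOX it was 0.0630 CPM (0.0395 to 0.0954). These intervals cover counting error only and take each read as a separate count. All counts of S100A8 were even, and whether both mates of a read pair were counted is not given in the sources used here. If they were, the intervals are too narrow. The log2 fold change was -1.51 (SE 0.65) and missed the threshold (edgeR adjusted p = 0.0601). It was -0.97 without DOX-positive replicate 1 and -2.51 without DOX-positive replicate 2. Over the alternatives the adjusted p ranged from 0.0155 to 0.174, and it passed in 6 of 13, which include DESeq2 size factors and the absence of a low-count filter.

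Per base of deposited gene length, S100A9 was well above its partner in every library. The ratio of S100A9 to S100A8 was 31.5, 34.5 and 85.9 without DOX, and 43.9 (replicate 2) and 109.9 (replicate 3) with DOX, where replicate 1 had no S100A8 read to divide by. With 1 read added to each count, the log2 ratio of S100A8 to S100A9 was -5.41 ± 0.735 without DOX and -7.09 ± 2.03 with DOX (SD, n = 3 each). The difference of -1.68 was within the spread (exact permutation test, two-sided, p = 0.2, where 0.1 is the smallest p the design allows). Without DOX-positive replicate 1 the difference was -0.55.

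Markers of leukocytes, the usual source of calprotectin, were mostly at or near 0. Of 13 leukocyte markers, CD3E and MS4A1 had 0 reads, PTPRC had between 0 and 6 reads per library and LYZ between 0 and 2. The B-cell receptor subunit CD79A read 0.737 ± 0.218 CPM without DOX and 25.8 ± 1.10 CPM with DOX. The myeloid integrin ITGAM had 0.193 ± 0.0256 CPM without DOX and fell by 1.75 on the log2 scale. The macrophage marker CD68 had 0.135 ± 0.0397 CPM without DOX and 0.268 ± 0.0667 CPM with DOX. CD68 passed narrowly (edgeR adjusted p = 0.0332), and its call was lost with library size alone (0.0637), by the DESeq2 Wald test (0.0540), and without DOX-negative replicate 2 (0.0983) or 3 (0.0852) or DOX-positive replicate 2 (0.152) or 3 (0.0668). The neutrophil gene CSF3R had 6, 28 and 28 reads without DOX and 4, 6 and 2 with DOX, and FCGR3B had 15, 24 and 4 against 5, 2 and 6, again too few to test. Leaving out CD79A, the summed level of the other 12 was 0.674 to 0.776 CPM without DOX and 0.427 to 0.515 CPM with DOX. Their part in the S100A8 and S100A9 values was not tested. Among 8 stromal and endothelial markers COL1A1 fell from 6.48 ± 0.555 to 4.67 ± 0.219 CPM and PDGFRB from 0.211 ± 0.0693 to 0.0862 ± 0.00756 CPM. PECAM1 and VWF did not pass, and LUM had 0 reads. COL3A1 went the other way, with 2, 4 and 5 reads without DOX and 14, 10 and 12 with DOX, too few to test. The call of PDGFRB was lost without DOX-negative replicate 1 (edgeR adjusted p = 0.0594), DOX-negative replicate 2 (0.0834) or DOX-positive replicate 2 (0.0529). In bulk RNA, fewer cells making a transcript and less of it per cell cannot be told apart.

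S100A14 is an epithelial member that can signal through RAGE. The gene (ENSG00000189334.9) spans 153614255 to 153616986 on chromosome 1, directly beside S100A16 on the same strand. It read 1.31, 0.729 and 0.754 CPM without DOX and 0.645, 0.450 and 0.626 CPM with DOX. The groups did not overlap, and DOX-negative replicate 1 stood apart on the high side. The mean fell 1.63-fold, from 0.930 ± 0.327 to 0.574 ± 0.107 CPM (by edgeR, log2 change -0.70 with SE 0.25, adjusted p = 0.0241). Without DOX-negative replicate 1 the log2 fold change was -0.36 and the call was lost (adjusted p = 0.218), as it was without DOX-positive replicate 2 (-0.53, adjusted p = 0.123).

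S100A4, or metastasin, binds non-muscle myosin IIA and is linked to cell motility and mesenchymal cells. The gene (ENSG00000196154.12) spans 153543613 to 153550136 on chromosome 1 and was expressed at a low level, with 0.724, 1.21 and 0.983 CPM without DOX and 0.569, 0.789 and 0.828 CPM with DOX. The groups overlapped, and the log2 fold change of -0.43 (SE 0.22) did not pass (edgeR adjusted p = 0.107). S100A3, a protein of the hair cuticle, read 1.29, 0.654 and 0.874 CPM without DOX and 0.645, 0.727 and 0.555 CPM with DOX, with a log2 change of -0.52 (SE 0.24; adjusted p = 0.0733 by edgeR). Its groups overlapped as well, and DOX-negative replicate 1 was the highest library. S100A3 (ENSG00000188015.10, 153547329 to 153549372) lies within the span of S100A4 on the same strand, so reads of the pair may have been divided or discarded. Each passed in 2 of 13 alternatives: both with library size alone, S100A3 without DOX-negative replicate 2 (-0.75) and S100A4 without DOX-negative replicate 1 (-0.57). Without DOX-negative replicate 1 the log2 change of S100A3 was -0.20. That of S100A4 was -0.22 when DOX-negative replicate 2 was left out and -0.27 when DOX-positive replicate 1 was.

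S100P, a placental member that activates ezrin and signals through RAGE, was the sparsest of the 10 and lies away from the cluster on chromosome 4 (ENSG00000163993.7, 6693069 to 6697170, plus strand). It had 11, 12 and 6 reads without DOX and 3, 4 and 3 reads with DOX, which did not pass the filter on low counts. Summed over each group, the level was 0.0859 CPM (95% exact Poisson interval 0.0575 to 0.123) without DOX. With DOX it was 0.0287 CPM (0.0137 to 0.0527). These intervals, too, take each read as a separate count. The DOX-negative libraries were all above the DOX-positive ones, which stood at about the level of 3 reads. Tested without the filter, its log2 fold change was -1.53 (SE 0.81) and did not pass (edgeR adjusted p = 0.140).

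Read per kilobase of the deposited gene length, the summed level of the 10 members was made almost wholly of S100A6, S100A11 and S100A16. That length need not be the length of the transcript made, and the order of genes depends on it. Without DOX the order among the 10 was S100A6 (177 ± 2.31 CPM per kilobase), S100A11 (116 ± 1.44) and S100A16 (81.6 ± 5.73), followed by S100A9 (8.12 ± 0.635). S100A10, which is not among the 10, stood between S100A11 and S100A16 at 96.6 ± 2.66 CPM per kilobase without DOX, and second to S100A6 at 289 ± 7.29 with DOX. With DOX the order among the 10 was S100A6 (558 ± 13.5 CPM per kilobase), S100A16 (186 ± 1.36), S100A11 (169.7 ± 7.65) and S100A9 (6.59 ± 1.03). S100A16 thus passed S100A11, and the 3 DOX-positive values of S100A16 all lay above the 3 of S100A11. S100A3, S100A4, S100A2 and S100A14 stood at 1.12 ± 0.383, 1.03 ± 0.258, 0.771 ± 0.125 and 0.729 ± 0.256 CPM per kilobase without DOX, neighbours that do not differ beyond their spread. With DOX, S100A2 led this lower tier at 1.75 ± 0.0175 CPM per kilobase, above S100A4 (0.770 ± 0.147), S100A3 (0.764 ± 0.102) and S100A14 (0.449 ± 0.0842). S100A8 and S100P were lowest in both groups, at 0.194 ± 0.0881 and 0.183 ± 0.0485 CPM per kilobase without DOX.

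The summed level of the 10 genes was 387 ± 7.62 CPM per kilobase without DOX and 924 ± 9.49 with DOX (SD, n = 3 each). S100A6 made up 45.8% ± 0.440 of that sum without DOX and 60.4% ± 0.928 with DOX. The share of S100A11 was 30.05% ± 0.855 and 18.4% ± 0.915, that of S100A16 21.1% ± 1.06 and 20.1% ± 0.318, and that of S100A9 2.09% ± 0.155 and 0.714% ± 0.107. By level, 99.6% of tested genes lay below S100A6 without DOX and 99.9% with DOX, while 43.2% and 55.4% lay below S100A2.

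**Figure D3:**
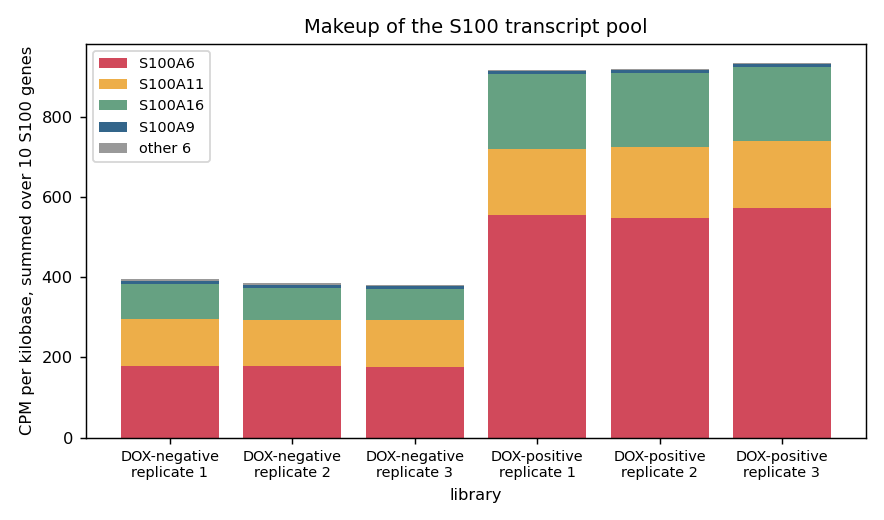
CPM per kilobase summed over the 10 S100 genes in each library, stacked by gene. The 3 DOX-positive bars reach 917 to 934 and the 3 DOX-negative bars 381 to 396, and most of the added height is S100A6.

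The other S100 genes of the genome, 11 of them, were mostly silent. S100A7A and S100A7L2 had 0 reads, and S100A7, S100A12, S100B, S100G and S100Z had at most 12 reads in any library. S100A10, the partner of annexin A2 on the plasma membrane, read 100.8, 96.8 and 95.6 CPM without DOX and 297, 284 and 296 CPM with DOX, a 2.99-fold rise (by edgeR, log2 change 1.58 with SE 0.03, adjusted p = 2.25e-15) close to that of S100A6. S100A13, which assists the release of fibroblast growth factor 1, fell from 8.39 ± 0.790 to 7.18 ± 0.233 CPM (by edgeR, log2 change -0.23 with SE 0.08, adjusted p = 0.0186). Its call was lost without DOX-negative replicate 1 (-0.16, adjusted p = 0.101), DOX-negative replicate 2 (0.0678), DOX-positive replicate 1 (0.0752) or DOX-positive replicate 2 (0.0603), and with library size alone its log2 change was -0.37. S100A1, a regulator of muscle calcium handling, had a log2 fold change of -0.42 (SE 0.36), S100A5 had one of -0.02 (SE 0.41), and neither passed. S100A1 and S100A13 overlap on opposite strands, and the strand setting of the counting is not given in the sources used here.

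Both directions occurred along the chromosome 1 interval. The interval from S100A10 to S100A1 (chromosome 1, 151982915 to 153632039, GRCh38) is 1649 kb long and holds 90 annotated genes, 22 of which were tested, with 6 higher and 7 lower. That is 13 of 22, near the 56.5% of all genes tested (27.6% higher and 28.9% lower). Among its 17 protein-coding S100 genes 13 were tested, 5 rose and 3 fell. S100A6 rose, S100A5, S100A4 and S100A3 beside it did not pass, S100A2 and S100A16 rose, and S100A14 and S100A13 next to them fell. Of 47 other protein-coding genes in the interval 30 had 0 reads and 4 were tested, of which 0 rose and 3 fell. BX470102.2, a long noncoding RNA gene between S100A2 and S100A16 that was named after its value was seen, had a log2 change of 0.36 (SE 0.06; adjusted p = 0.000103 by edgeR).

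**Figure D4:**
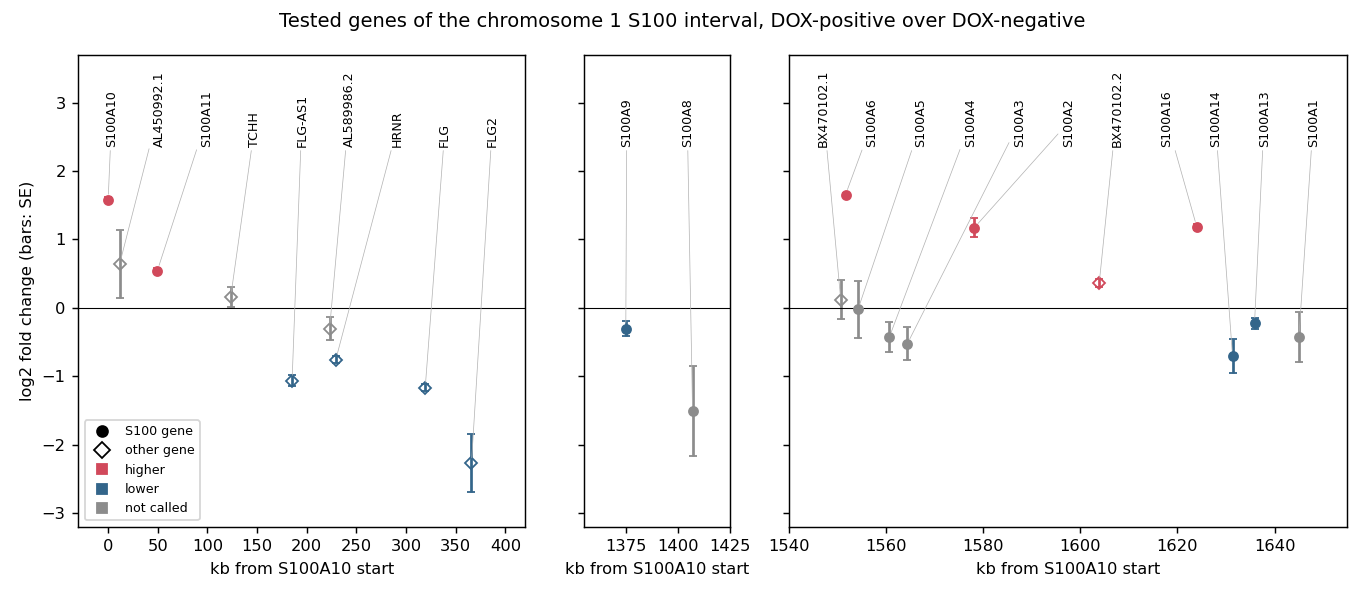
Log2 fold change with its SE for the 22 tested genes of the chromosome 1 interval, by distance in kb from the lowest annotated position of S100A10, in 3 stretches with different scales. In the right panel S100A6 is higher (red), S100A5, S100A4 and S100A3 did not pass (grey), S100A2 to S100A16 are higher and S100A14 and S100A13 lower (blue), and the fused-type genes FLG, FLG2 and HRNR in the left panel all fell.

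The 4 tested neighbours are fused-type S100 genes, long epidermal proteins with an S100 domain at their start. FLG, which encodes filaggrin of the skin barrier, read 21.6, 21.1 and 22.3 CPM without DOX and 8.87, 9.84 and 10.2 CPM with DOX, a 2.24-fold fall (by edgeR, log2 change -1.17 with SE 0.06, adjusted p = 2.84e-11). HRNR, or hornerin, fell 1.69-fold from 20.7 ± 1.19 to 12.3 ± 0.519 CPM, and FLG2 fell from 0.537 ± 0.124 to 0.107 ± 0.0757 CPM. TCHH, or trichohyalin of the hair follicle, had a log2 fold change of 0.16 (SE 0.14) and did not pass. RPTN had 0 reads, and TCHHL1 and CRNN had too few to test. FLG, FLG2 and HRNR lie opposite the antisense gene FLG-AS1, which fell by 1.06 on the log2 scale (named after its value was seen), and reads of the strands may not be separable.

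Receptors for secreted S100 proteins were present unevenly. TLR4, the main receptor for S100A8 and S100A9, had 0 reads in all 6 libraries, and the scavenger receptor CD36 had between 0 and 8. AGER, which encodes RAGE, read 5.09, 4.89 and 3.61 CPM without DOX and 2.42, 2.61 and 2.50 CPM with DOX, a fall of 0.85 on the log2 scale (SE 0.13, edgeR adjusted p = 2.1e-05). The groups did not overlap. BSG, or basigin, a receptor for S100A9, rose 1.23-fold from 370.2 ± 23.2 to 454 ± 7.89 CPM. The TLR4 co-receptors went opposite ways at low levels: LY96 rose 2.69-fold from 0.465 ± 0.127 CPM and CD14 fell from 1.02 ± 0.0562 to 0.286 ± 0.0369 CPM. Of 6 receptor genes, 4 were tested, 2 rose and 2 fell, where 27.6% of all genes tested rose and 28.9% fell. With library size alone the log2 change of BSG was 0.15.

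Intracellular partners of the S100 proteins changed in 15 of 16 cases, 10 higher and 5 lower, where 56.5% of all genes tested changed, 27.6% higher and 28.9% lower. Their median log2 fold change was 0.34, against -0.04 for all genes tested. These shares are not matched by level. The lowest of the 16 partners, STUB1, stood at 13.3 ± 0.812 CPM without DOX. The genes tested also include sparse ones such as S100A8, at 0.173 ± 0.0785 CPM without DOX. Whether other genes at the level of the partners changed as often was not tested. ANXA2, the partner of S100A10 that S100A6 also binds, rose 3.01-fold from 849 ± 4.32 to 2557 ± 44.0 CPM. ANXA1, the partner of S100A11, rose 2.16-fold from 251 ± 9.40 to 543 ± 13.2 CPM. AHNAK, a scaffold of the annexin A2 and S100A10 complex, rose from 1399 ± 71.7 to 2794 ± 87.0 CPM, and EZR, the ezrin that S100P binds, rose 1.71-fold. Beyond these, ANXA11, MYH9, PPFIBP1, MDM2, STUB1 and IQGAP1 rose. IQGAP1 did so by 0.13 on the log2 scale and flipped to -0.01 with library size alone. That scaling took MDM2, MYH9, PPFIBP1 and STUB1 to 0.22, 0.28, 0.28 and 0.17, and CACYBP, ANXA6 and S100PBP to -0.32, -0.41 and -0.34.

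SUGT1 and CACYBP, which S100A6 binds, went the other way. SUGT1, a co-chaperone of HSP90, read 60.9, 62.1 and 61.1 CPM without DOX and 37.7, 37.9 and 38.5 CPM with DOX, and fell by 0.69 on the log2 scale (SE 0.03, edgeR adjusted p = 1.09e-11). CACYBP fell by 0.17, from 109 ± 2.26 to 96.4 ± 3.61 CPM. ANXA6 and S100PBP fell by 0.27 and 0.19 on the log2 scale, and the phosphatase gene PPP5C did not pass. SUGT1, CACYBP, ANXA6 and S100PBP each had groups that did not overlap, as did 62.4% of all genes tested.

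**Figure D5:**
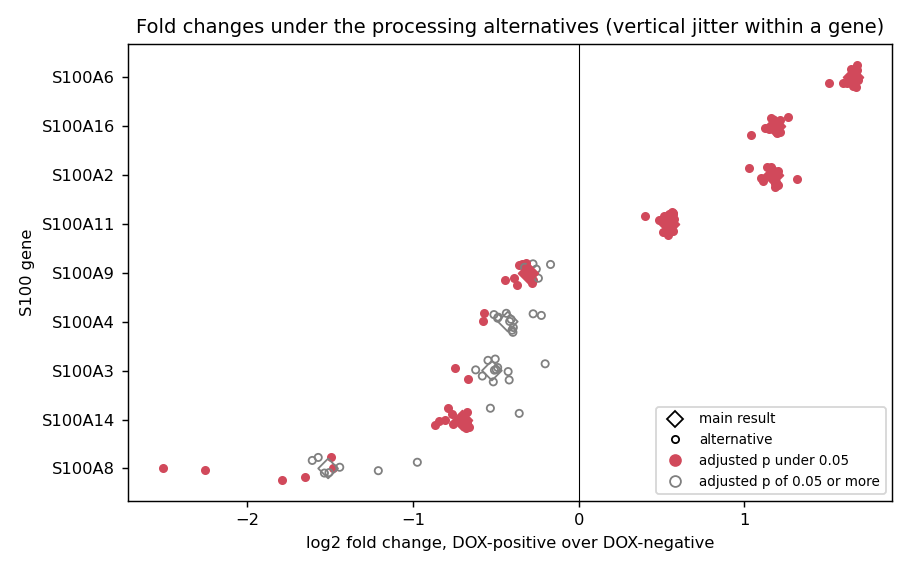
Log2 fold change of the 9 members tested as reported (diamonds) and under up to 14 alternatives (circles), filled red where the adjusted p is under 0.05. S100A6, S100A16, S100A2 and S100A11 stay filled and to the right of 0, while the 5 genes to the left of 0 hold both filled and open symbols.

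The plot of alternatives separates the firm from the fragile members. S100A6, S100A16, S100A2 and S100A11 passed under all 14 alternatives, with log2 fold changes of 1.51 to 1.68, 1.04 to 1.26, 1.03 to 1.32 and 0.40 to 0.57. S100A14 passed in 11 of 13 and S100A9 in 9 of 14. Every value of S100A14, S100A9, S100A8, S100A3 and S100A4 was below 0 in the alternatives run. With library size alone, which moved the median of all genes from -0.04 to -0.19, 4 members were higher and 5 lower, against 4689 higher and 9579 lower among all genes.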

How the data were processed

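The deposited table holds whole-number read counts per gene and library, not normalized, with a gene length. Per the labels' protocols, the authors used a stranded mRNA kit. Per the submitters' processing notes, the build was GRCh38.p7 and the tools included STAR 2.7.9a, CASAVA 1.8.2 and, of the DESeq2 releases, 1.24.0. How reads were assigned to genes (counter, annotation, strand, shared reads, mates of a pair) is not given in the sources used here. The 66 genes without a symbol took 0.000516% of reads.

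Groups and replicate numbers came from the sample titles. Nothing says that the triplicate cultures were grown apart, so the p-values reflect only how far these cultures varied, which may be technical. The edgeR 4.0.16 quasi-likelihood test (R 4.3.3, group as the only term) was run on 24695 genes kept by filterByExpr (minimum count 10, minimum total 15), with TMM scaling, Benjamini-Hochberg adjustment and a threshold of 0.05. It was tested on simulated data. SE is the absolute log2 fold change over the square root of F. CPM used TMM-scaled library sizes, and CPM per kilobase divides by the deposited length. GENCODE 29 gave positions and RefSeq gave promoters (all 10 members matched). Gene identifiers are printed with the versions of the count table and were matched to GENCODE 29 without them. The versions differ for S100A6 and other members, so the counts rest on another annotation release, which is not named.

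Members and lists were chosen with earlier results of these data known. The naming rule took MUC1, all members, every other S100 gene tested, up to 4 genes of each list and of the interval with the smallest p, and 3 genes most like the member that changed most. Other names are marked or given for completeness of a list, and some genes that the lists count are not reported here. The calprotectin ratio was planned without an added read, which a count of 0 did not allow. Other tools were limma 3.58.1, DESeq2 1.42.0, scipy 1.17.1 and matplotlib 3.10.9.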

Additional observations from a re-analysis of the deposited data

How the results depend on the processing

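Scaling was changed to library size alone, upper quartile or DESeq2 size factors. The filter was dropped or set to 1 CPM in 3 libraries, the test was changed to limma-voom or the DESeq2 Wald test, a replicate block was added, and libraries were left out 1 at a time. Over them 11294 to 14480 genes passed, against 13957, and 5 to 9 members, against 6. Upper-quartile scaling gave 5926 genes higher and 8051 lower, against 6825 and 7132. With the replicate block 13503 genes and 6 members passed, and among the other listed genes CD68 alone lost its call (edgeR adjusted p = 0.0597). Same-numbered libraries correlated at -0.07, -0.03 and 0.01 in their deviations from group means, so the numbers were not taken as pairs. The S100A8 to S100A9 difference ran from -2.53 to -0.55 with each library left out, and was -2.01 with a smaller added read count and -0.62 without DOX-positive replicate 1 and no read added, both chosen after seeing the data. Genes under about 1 CPM (S100A8, S100A3, S100A4, S100A14, S100P) rest on at most 178 reads in a library, which limits their precision.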
